A study of Homo sapiens with 2 samples.

Results

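The genes described here serve mitochondrial protein import, folding and proteolysis. They were chosen by name from the deposited FPKM table: every gene whose symbol is TOMM or TIMM followed by a number and optional letters, and 19 further named genes of the presequence import motor, the disulfide relay, presequence cleavage, the chaperonins and the mitochondrial proteases. The rule found 44 genes of 56544 named genes in the table, each on 1 entry, and used no measured value. It was set with earlier results of these data known, so no count below is independent support. RNA sequencing was done on HGC-27, an established human gastric cancer line labelled as undifferentiated. Cells received a peptide, named SOS in the sample titles and SHAP in the series title, or a control peptide, for 48 h. Both peptides were carried in PDPA drug delivery micelles, and both groups grew in RPMI medium with serum. Each group has 1 library. Without replicates no difference can be set against their spread, no test was made, and each statement describes these 2 libraries.

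FPKM counts fragments relative to transcript length and library size, so levels of different genes can be set side by side. The depth of each library is not given in the sources used here, and no counting interval was computed. The summed FPKM was 758000 in SOS and 886000 in control, and genes of the mitochondrial genome (MT- symbols) held 18.0% of that sum in SOS and 10.2% in control. The part of this shift in the differences below was not tested. Directions follow the column names of the FPKM. The deposited log2 ratio has the opposite sign, positive for genes with more FPKM in the control column; if the column names are exchanged, every direction given here turns. The line is labelled as gastric cancer, and most of the gastric epithelial markers were low. Of the 7, 5 (KRT18, CDH1, EPCAM, KRT8 and KRT19) were each under 1 FPKM in both libraries. CLDN7 was at 6.96 in SOS and 4.64 in control, and MUC1 at 6.08 in SOS and 3.77 in control. Of 4 mesenchymal markers, VIM was at 3140 in SOS and 3161 in control, ZEB1 and FN1 were above 5 FPKM in both, and CDH2 was at 0.123 in SOS and 0.156 in control. All 6 fibroblast markers were detected, at 5.07 to 437 FPKM in SOS and 2.51 to 331 in control, whereas CD3E, HBB and CDH5 were listed at 0 in both. All 6 fibroblast markers had the higher level in SOS; their part in the differences below was not tested. In bulk RNA, fewer cells of a type and less RNA per cell cannot be told apart.

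Most mitochondrial proteins are made in the cytosol and enter through the TOM complex of the outer membrane. The TIM23 complex and its HSP70-driven motor then carry proteins with a presequence into the matrix. The small TIM chaperones escort hydrophobic carriers across the intermembrane space to the TIM22 complex. In the matrix the presequence is cut off, the HSP60 and HSP10 chaperonin folds the protein, and ATP-dependent proteases clear what misfolds. When misfolded protein accumulates in mitochondria, mammalian cells can raise some of these chaperones and proteases, a program called the mitochondrial unfolded protein response.

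As deposited, transcripts of import and folding genes were lower in SOS than in control for nearly the whole group, by modest amounts. Fewer were lower with the libraries scaled to the same sum, as given in the next paragraph. The measure was log2((SOS FPKM + 1)/(control FPKM + 1)), taken where one or both libraries reached 1 FPKM; the added 1 understates the difference of low genes. That level was reached by 43 of the 44 genes. TOMM20L, a paralogue of the receptor TOMM20, was listed at 0 in both libraries. Of the 43, 39 had a ratio below 0 and 4 above, against 54.1% below 0 and 45.8% above among all 14288 genes tested. The median over the 43 was -0.48, and -0.05 over all genes tested. A difference of at least 2-fold on this scale, a log2 ratio of 1 or more in size, was reached by 1 gene downward (HSPE1) and by none upward. The share of all genes tested was 1.64% downward and 3.74% upward, so a count of 1 is near the background.

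The ratio also moved with the level of a gene. Of the 43 genes, 26 were in the quintile of genes with the highest level (a mean FPKM of 33.6 or more), where 81.9% of all genes had a ratio below 0 and the median was -0.34. The 26 had a median of -0.57, and 18 of them were below that quintile's median. In the next lower quintile the 11 members had a median of -0.21, against -0.16 for all genes there, and 7 of them were below the latter. In the middle quintile 3 of 4 members were below its median, and in the quintile under that 2 of 2. With the libraries scaled to the same sum of FPKM, the median of all genes tested moved to 0.15. There 30 of the 43 stayed below 0, against 36.6% of all genes tested. Scaled to the same sum without the MT- genes, that median was 0.27. There 27 of the 43 stayed below 0, against 26.2% of all genes tested. The 9 genes that turned positive under the first scaling were CLPX, DNAJC19, HTRA2, LONP1, PMPCB, TIMM44, TOMM70, TRAP1 and YME1L1, and GFER, TOMM20 and TOMM7 joined them under the second. Set against the median of all genes tested, 38 of the 43 lay below it as deposited (50.0% of all genes do by construction) and 36 did under each of these scalings. That share depends on level. As deposited, 2237 of the 2858 genes in the highest quintile and 1749 of the 2857 in the next lower one lay below that median. Across the 43 genes the ratio had a Spearman correlation of -0.21 with mean FPKM and of 0.03 with the median annotated transcript length, or 0.29 with the longest transcript, as descriptions across genes of the same 2 libraries; over all genes tested these were -0.39, 0.07 and 0.16.

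**Figure D1:**
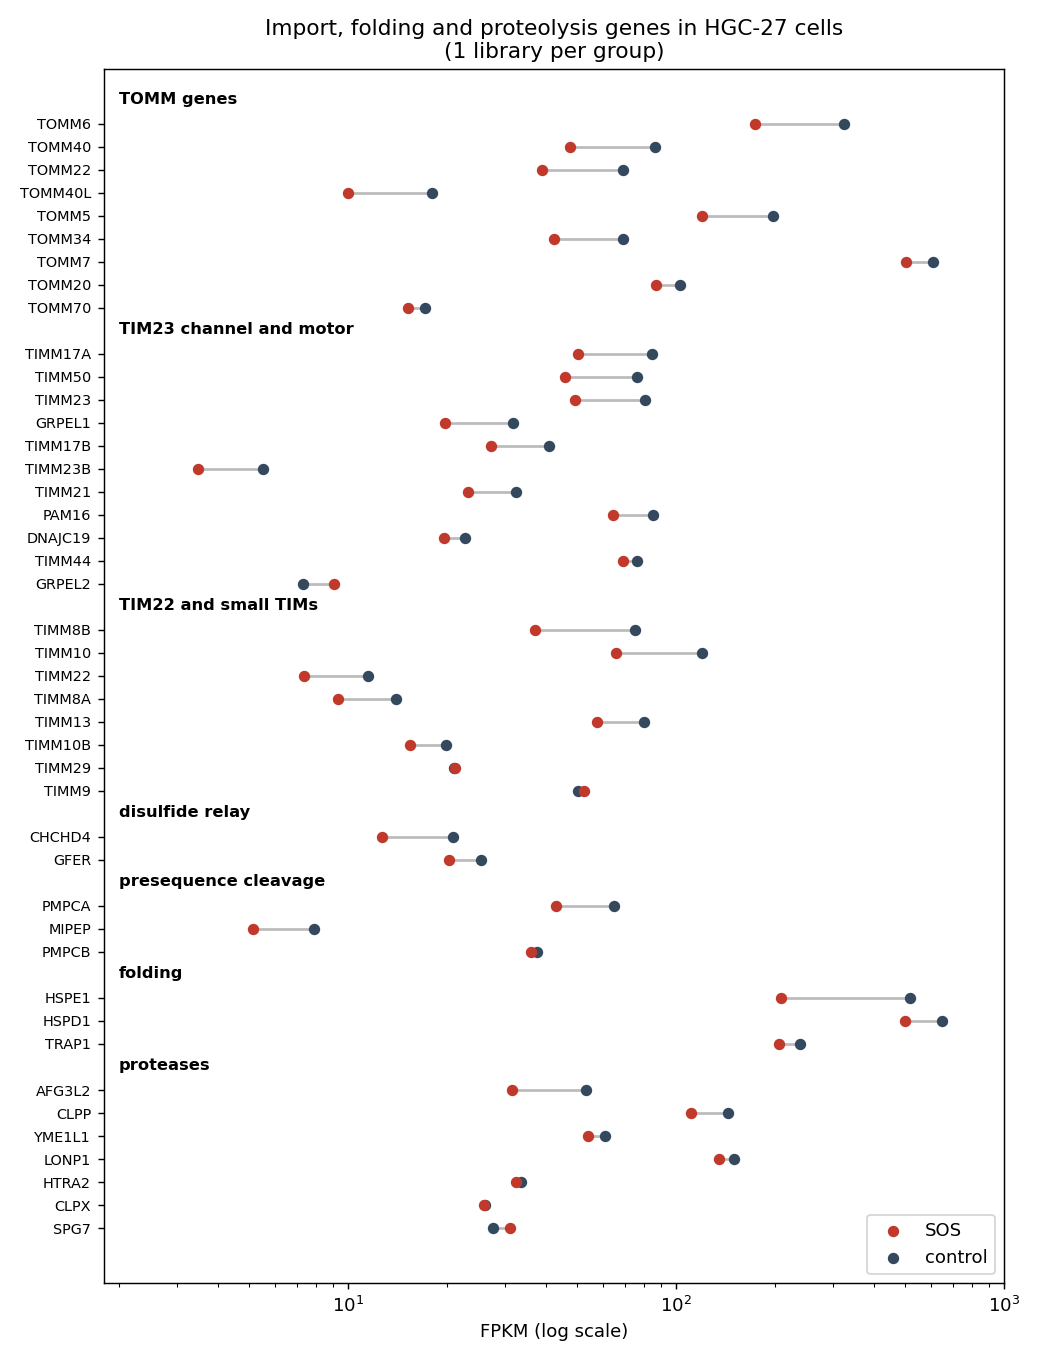
FPKM of the 43 genes that reached 1 FPKM, on a log axis, grouped by role and ordered by ratio; red points are the SOS library and dark points the control library. In all but GRPEL2, TIMM9, TIMM29 and SPG7 the SOS point lies left of the control point, by most for HSPE1 (209 in SOS, 516 in control).

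**Figure D2:**
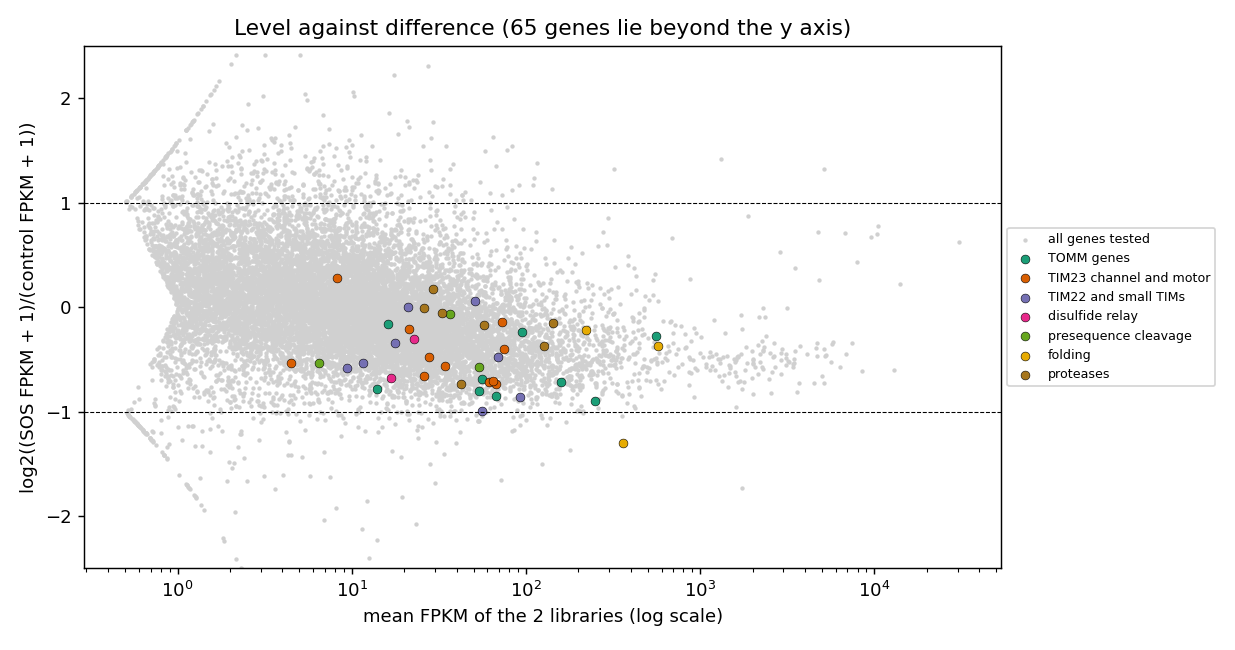
Mean FPKM of the 2 libraries (log axis) against log2((SOS FPKM + 1)/(control FPKM + 1)) for all genes tested (grey; 65 lie beyond the axis) and for the 43 genes, coloured by role; dashed lines mark a log2 ratio of 1 in either direction. Of the 43, only HSPE1 (-1.30) lies below the lower line, and the grey cloud itself slopes down at high levels.

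Promoter sequence was read from RefSeq (build GRCh38.p14) for 39 of the 44 genes, in 45 entries, over the 250 bases before each start. The following stretches are shown because they hold short motifs of factors linked to stress or to nuclear genes of mitochondria; motif letters are in capitals. HSPD1 and HSPE1, the chaperonin and co-chaperonin genes, start in opposite directions with 104 bases between the starts. The 30 bases shown from that stretch hold the E-box CACGTG, bound by MYC among others. The TIMM10 stretch ends, beside the annotated gene start, with TTCCGGAA, which matches TTCNNGAA, a short part of a heat shock element. In the full 250 bases these letters overlap the ETS element CCGGAAG. TIMM22 holds TTGCATCA, the reverse complement of the composite element TGATGCAA of CHOP or ATF4 with a C/EBP partner. TOMM7 holds the NRF1 element GCATGCGC. The first stretch lies in the 250 bases before the HSPE1 start, a window that overlaps annotated exons of HSPD1 and HSPE1. Whether these 30 bases are themselves exonic was not computed. The last 3 are the longest runs free of annotated exons in their windows.
HSPD1 and HSPE1, chr2:197500345-197500374, plus strand: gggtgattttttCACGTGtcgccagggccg
TIMM10, chr11:57530804-57531004, minus strand: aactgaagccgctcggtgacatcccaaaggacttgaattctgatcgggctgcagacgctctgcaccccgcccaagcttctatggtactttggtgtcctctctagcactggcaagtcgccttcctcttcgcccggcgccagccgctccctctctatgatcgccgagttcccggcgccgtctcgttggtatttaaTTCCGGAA
TIMM22, chr17:996879-997116, plus strand: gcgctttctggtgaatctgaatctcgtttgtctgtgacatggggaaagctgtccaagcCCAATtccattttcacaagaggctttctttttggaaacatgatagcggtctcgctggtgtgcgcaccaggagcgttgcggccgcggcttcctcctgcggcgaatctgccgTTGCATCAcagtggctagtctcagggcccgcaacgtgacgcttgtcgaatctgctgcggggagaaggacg
TOMM7, chr7:22822853-22823099, minus strand: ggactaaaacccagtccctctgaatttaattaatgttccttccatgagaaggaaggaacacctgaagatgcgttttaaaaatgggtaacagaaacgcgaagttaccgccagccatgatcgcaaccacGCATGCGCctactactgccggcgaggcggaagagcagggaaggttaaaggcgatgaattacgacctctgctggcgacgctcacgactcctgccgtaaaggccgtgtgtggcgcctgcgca

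All motifs were searched on both strands in the 250 bases, and these shares are descriptions. The ETS element CCGGAAG, which can overlap TTCNNGAA as it does in TIMM10, stood in 14 of the 45 member entries (31.1%), against 14.2% of entries of genes tested and 8.52% of all promoters. The NRF1 element stood in 5 entries (11.1%), against 4.30% of entries of genes tested and 2.63% of all promoters. The E-box CACGTG was in 5 entries (11.1%), against 8.28% and 6.34%, and the entries of HSPD1 and HSPE1 share 1 site. TTCNNGAA stood in 3 entries (6.67%), from HSPD1, TIMM10 and TOMM70, against 5.18% and 6.62%. GAANNTTC stood in 1 entry (2.22%), that of a second HSPD1 start, against 4.22% and 5.78%. TGATGCAA was in 2 entries (4.44%), from PMPCB and TIMM22, against 0.408% and 0.772%. CCAAT, the NF-Y box also capitalised in TIMM22, was in 10 entries (22.2%), against 33.2% and 32.0%. The 14 tested genes with CCGGAAG had a median log2 ratio of -0.29, and the 24 with a promoter entry and no such letters had -0.55. The NRF1 element split the same way, at -0.28 for the 5 genes with it and -0.53 for the 33 without. CCAAT went the other way, at -0.58 for 10 genes with it and -0.39 for 28 without. The E-box was at -0.37 for 5 genes with it and -0.48 for 33 without. TGATGCAA was at -0.32 for 2 and -0.47 for 36, and TTCNNGAA at -0.37 for 3 and -0.48 for 35. GAANNTTC was at -0.37 for 1 gene and -0.48 for 37. A link of any motif to the ratio was not tested. No match says only that these letters are not in this window.

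The TOMM genes were the group with the lowest median of the 7 roles, at -0.72, and all 9 tested members were below 0. TOMM6, a small subunit attached to the channel (chromosome 6, 41787662 to 41789898, GRCh38), was at 174 FPKM in SOS and 325 in control, 1.86-fold lower. TOMM40 (chromosome 19, 44890569 to 44903689), the channel itself, was at 47.3 in SOS and 86.4 in control. The central receptor TOMM22 was at 39.1 in SOS and 69.1 in control. These channel and core receptor genes thus shared a difference of 1.77 to 1.86-fold, and TOMM40L, a paralogue of TOMM40, was within that range at 10.0 in SOS and 18.0 in control. TOMM5, another small subunit, was at 120 in SOS and 198 in control. The presequence receptor TOMM20 and the carrier receptor TOMM70 differed less: TOMM20 was at 86.7 in SOS and 102 in control. TOMM70 was at 15.3 in SOS and 17.2 in control, and both genes were above 0 with the libraries scaled to the same sum without MT- genes. TOMM34, which despite its name is a cytosolic co-chaperone, was at 42.4 in SOS and 69.0 in control. TOMM7, a small subunit that steadies the complex, was the most abundant TOMM gene, at 502 in SOS and 608 in control. Its log2 ratio was -0.28 by FPKM and -0.61 by the authors' deposited log2 ratio, with its sign turned and its offset removed, and it was 0.08 with the libraries scaled to the same sum without MT- genes.

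Of the 11 genes of the TIM23 channel and motor, 10 were below 0, with a median of -0.53. The channel subunits stood close together. TIMM23 (chromosome 10, 45972449 to 46003734), which forms the channel, was at 49.0 in SOS and 80.6 in control. TIMM17A, its partner, was at 50.2 in SOS and 84.3 in control, and the presequence receptor TIMM50 at 45.9 in SOS and 76.1 in control. These 3 were 1.64 to 1.68-fold lower in SOS. TIMM17B, the paralogue of TIMM17A, was at 27.3 in SOS and 40.9 in control, so the TIMM17A to TIMM17B ratio was 1.84 in SOS and 2.06 in control. TIMM21, which couples TIM23 to the outer membrane and the respiratory chain, was at 23.2 in SOS and 32.6 in control. TIMM23B is a near-identical copy of TIMM23, so the split of reads between them is uncertain; it was at 3.49 in SOS and 5.49 in control.

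The motor genes were less uniform. TIMM44, which tethers the motor to the channel, was at 69.0 in SOS and 76.1 in control, a log2 ratio of -0.14. DNAJC19 carries the J domain that stimulates mitochondrial HSP70 and was at 19.6 in SOS and 22.8 in control; its regulator PAM16 was at 64.1 in SOS and 85.2 in control. The nucleotide exchange factors of this HSP70 went apart. GRPEL1 was at 19.7 in SOS and 31.9 in control, whereas its paralogue GRPEL2 (chromosome 5, 149345430 to 149354583) was at 9.07 in SOS and 7.29 in control. GRPEL2 had the highest ratio of the 43 genes by FPKM, 0.28, and was at 0.19 to 0.60 under the 9 alternatives. For a gene above 0 as deposited, only the authors' ratio could have changed the side. The scalings and the median setting raise every ratio, and the others keep the sign or the value. Of the 0.19 of GRPEL2 by the authors' ratio, 0.15 is the offset. By that ratio, turned, SPG7 (0.35), TIMM29 (0.31) and TIMM9 (0.25) lay above GRPEL2 (0.19). The read-through entry CORO7-PAM16, which shares sequence with PAM16, was at 0.328 in SOS and 1.58 in control.

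**Figure D3:**
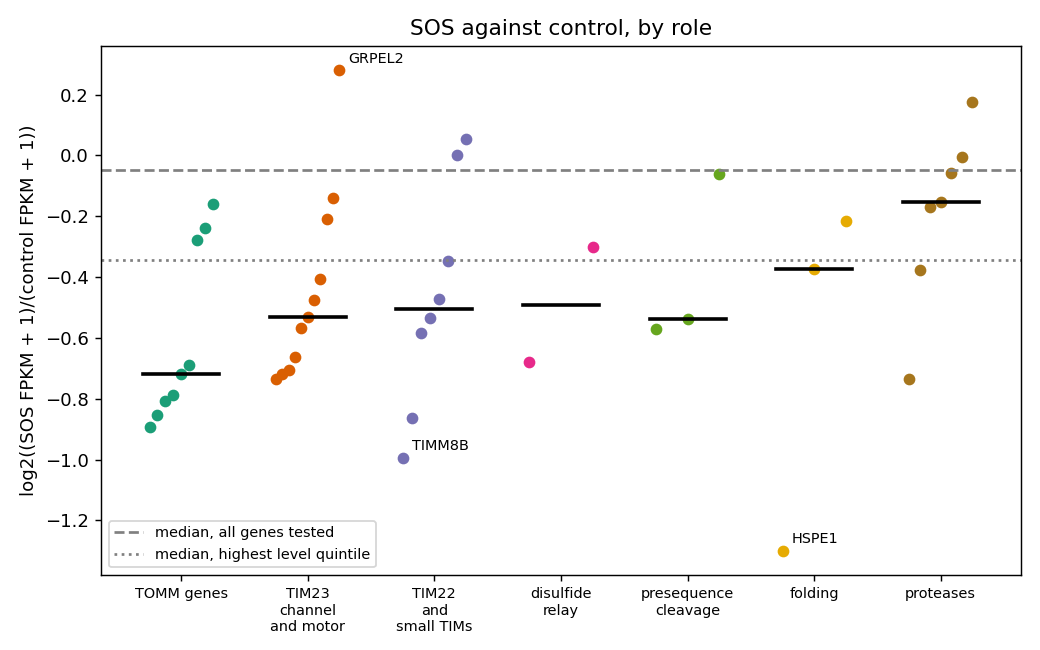
The log2((SOS FPKM + 1)/(control FPKM + 1)) of each of the 43 genes by role, with a bar at the median of each role; the dashed and dotted lines are the medians of all genes tested (-0.05) and of the quintile of genes with the highest level (-0.34). The TOMM genes have a median of -0.72 and the proteases one of -0.15.

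Within the TIM22 and small TIM group 6 of 8 genes were below 0, with a median of -0.50. TIMM8B (chromosome 11, 112084800 to 112086798), a small TIM chaperone, was at 37.2 FPKM in SOS and 75.1 in control, 2.02-fold lower. Its ratio of -0.99 with the added 1 lay just short of the size rule; with 0.1 or 0.01 added it was -1.01 in both cases. The paralogue TIMM8A was at 9.34 in SOS and 14.0 in control, and TIMM13, with which it forms a complex, at 57.3 in SOS and 79.9 in control. TIMM10 (chromosome 11, 57528463 to 57530803) was at 65.5 in SOS and 120 in control. Its partner TIMM9, which joins it in the carrier chaperone of the intermembrane space, did not share this difference, at 52.3 in SOS and 50.3 in control. TIMM10B, the small TIM held at the TIM22 complex, was at 15.4 in SOS and 19.9 in control. The channel gene TIMM22 was at 7.34 in SOS and 11.5 in control, while TIMM29, a metazoan subunit of the same complex, was at 21.1 in both. TIMM9 and TIMM29 were above 0 under every alternative, of which only the authors' ratio could have turned them.

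The disulfide relay oxidises small TIMs and other proteins of the intermembrane space. CHCHD4, the import oxidoreductase, was at 12.7 in SOS and 20.9 in control, and GFER, the sulfhydryl oxidase that recycles it, was at 20.4 in SOS and 25.4 in control. Both were below 0, but GFER came to 0.04 with the libraries scaled to the same sum without MT- genes. Among presequence peptidases, PMPCA, the non-catalytic subunit of the processing peptidase, was at 43.2 in SOS and 64.5 in control. Its catalytic partner PMPCB was at 36.0 in SOS and 37.7 in control. MIPEP, which trims an octapeptide from some imported proteins, was at 5.12 in SOS and 7.88 in control, and the pseudogene entry MIPEPP3 at 0.706 in SOS and 2.89 in control. The catalytic subunit thus differed little, and the other peptidase genes were 1.49 and 1.54-fold lower.

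Among the folding genes the co-chaperonin stood apart from the chaperonin. HSPE1, the HSP10 lid of the chaperonin (chromosome 2, 197499994 to 197503457), was at 209 FPKM in SOS and 516 in control, 2.47-fold lower, with a log2 ratio of -1.30. It had the lowest ratio of the 43 genes and was the only one past the size rule; scaled to the same sum without MT- genes it came to -0.94 and no longer passed. HSPD1, the HSP60 barrel, was at 499 in SOS and 646 in control, 1.30-fold lower. By the RefSeq start used above, HSPD1 starts on the other side of the stretch shown. Its GENCODE span (chromosome 2, 197486581 to 197516737, minus strand) reaches further and contains the whole span of HSPE1. Without strand, reads where the exons of these genes overlap cannot be told apart. TRAP1, the mitochondrial HSP90, was at 206 in SOS and 239 in control. The read-through entry HSPE1-MOB4, whose sequence overlaps that of HSPE1, was at 9.44 in SOS and 12.0 in control. Of 80 entries named as pseudogenes of the 44 genes, many of them of HSPD1 and HSPE1, 73 were at 0 in both libraries, and all 80 summed to 3.90 FPKM in SOS and 6.94 in control.

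The proteases had a median of -0.15 over 7 genes, 6 of them below 0, the role median nearest to 0 as deposited. With the libraries scaled to the same sum without MT- genes it was 0.20, and that of the folding genes was -0.02. AFG3L2 (chromosome 18, 12328944 to 12377314), a subunit of the m-AAA protease of the inner membrane, was the lowest, at 31.6 in SOS and 53.2 in control, 1.68-fold lower. SPG7, the paraplegin subunit that assembles with AFG3L2, was at 31.3 in SOS and 27.6 in control. It was above 0 under every alternative, of which only the authors' ratio could have turned it. CLPP, the proteolytic chamber of a matrix protease, was at 111 in SOS and 144 in control. Its unfoldase CLPX was at 26.0 in SOS and 26.1 in control. LONP1, the main matrix protease, was at 135 in SOS and 150 in control. The i-AAA protease YME1L1 was at 53.7 in SOS and 60.6 in control, and HTRA2, a protease of the intermembrane space, at 32.4 in SOS and 33.7 in control. CLPX, LONP1, YME1L1 and HTRA2 each turned positive after scaling to equal sums, as did TRAP1, so no direction is given for them.

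Ratios between genes of 1 library do not depend on how the libraries are scaled. Of 11 pairs of partners or paralogues compared in this way, 5 were chosen after their values were seen: HSPD1 with HSPE1, TIMM9 with TIMM10, PMPCB with PMPCA, CLPX with CLPP and GFER with CHCHD4. The HSPD1 to HSPE1 ratio was 2.39 in SOS and 1.25 in control, a 1.91-fold difference. By the authors' deposited log2 ratio the same difference came to 1.60-fold. TIMM9 to TIMM10 was 0.798 in SOS and 0.419 in control. SPG7 to AFG3L2 was 0.990 in SOS and 0.519 in control. GRPEL2 to GRPEL1 was 0.459 in SOS and 0.229 in control. Each of these 4 ratios was 1.90 to 2.01-fold higher in SOS by FPKM, and 1.60 to 2.30-fold higher by the authors' ratio. The pairs TIMM17A with TIMM17B, TOMM40L with TOMM40 and TIMM23B with TIMM23 had ratios in SOS of 0.893, 1.01 and 1.04 times the control ratio by FPKM, and of 0.889, 1.08 and 1.28 times by the authors' ratio. The other 4 pairs were at 1.30 to 1.43 times by FPKM and 1.18 to 1.43 times by the authors' ratio.

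**Figure D4:**
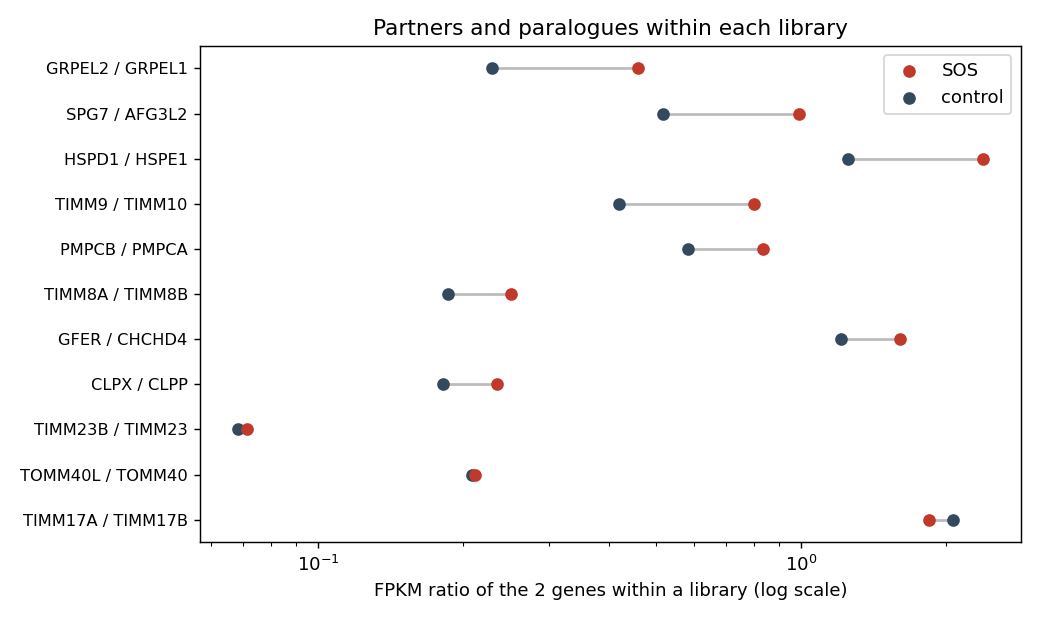
Ratio of the FPKM of 2 genes within the same library (log axis) for 11 pairs, with SOS in red and control in dark. The 4 uppermost pairs have ratios 1.90 to 2.01-fold higher in SOS, and the lowest 3 pairs have ratios in SOS of 0.893 to 1.04 times those in control.

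By the authors' deposited table, 39 of the 44 genes had a log2 ratio above 0, the side on which the control column is higher, against 53.4% of genes tested. The authors marked 5 of them as significant on that side, HSPE1, TOMM6, TIMM8B, TIMM10 and TOMM40, against 2.26% of the genes tested, and none on the other side (3.63% of genes tested). In the authors' deposited table their log2 ratios were 1.26, 1.11, 1.10, 1.10 and 1.03, in that order. Turned to SOS over control and with the offset of 0.15 removed, these were -1.11, -0.96, -0.95, -0.95 and -0.87. On that scale only HSPE1 was past a size of 1. All 5 are in the quintile of genes with the highest level, whereas the 2.26% covers genes of all levels. That table compares 2 libraries and not replicated conditions. Turned to SOS over control, and with a median offset of 0.15 from the FPKM removed, the authors' ratio had a median of -0.43 over the 43 genes, with 38 of them below 0, against a median of 0.01 and 49.6% below 0 over all genes tested.

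**Figure D5:**
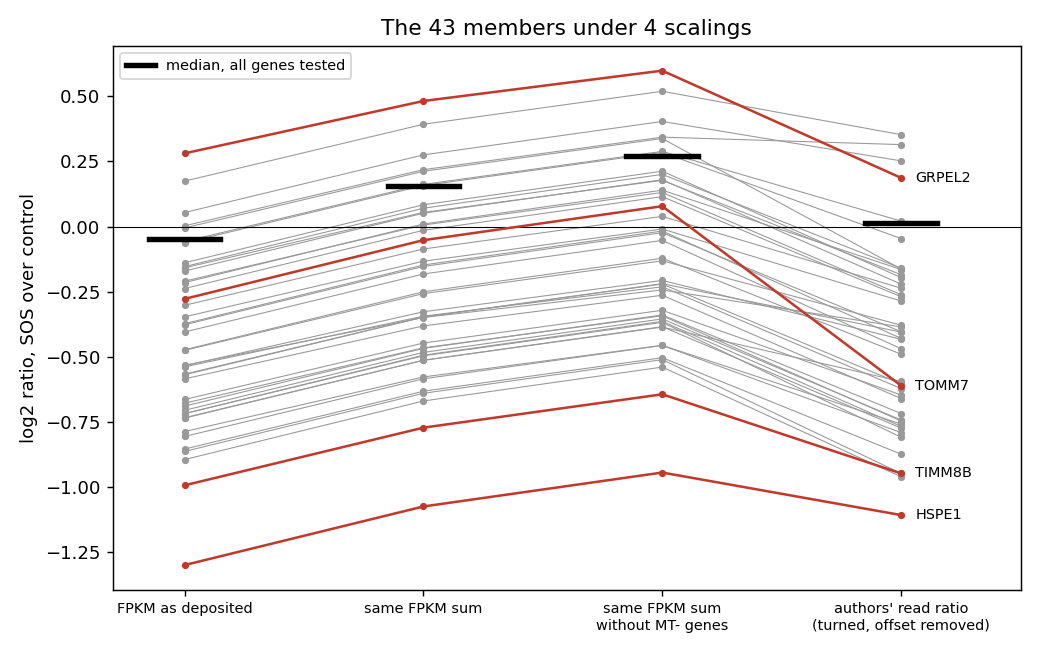
The log2 ratio of SOS over control for the 43 genes (lines) as deposited, after scaling to the same FPKM sum, after the same without MT- genes, and by the authors' ratio; short black bars are the medians of all genes tested (-0.05, 0.15, 0.27 and 0.01). The whole set shifts with the scaling, GRPEL2 stays above 0, HSPE1 stays lowest, and TOMM7 differs most in place between FPKM (-0.28) and the authors' ratio (-0.61).

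Other genes of import, folding, quality control and mitochondrial stress signalling, from a separate list, had a ratio below 0 in most cases. The table holds 37 such genes, of which 36 were tested. Of these, 30 had a ratio below 0 and 6 above, with a median of -0.38 and none past the size rule. That is 83.3% below 0, against 54.1% of all genes tested. The quintile with the highest level holds 17 of the 36. Of these 17, 16 (94.1%) were below 0, against 81.9% of all genes in that quintile. With the libraries scaled to the same sum 24 of the 36 were below 0, against 36.6% of all genes tested. Without the MT- genes in that sum 21 of the 36 were, against 26.2%. HSPA9, the mitochondrial HSP70 of the motor, was at 209 in SOS and 300 in control, and its J-protein DNAJA3 at 44.2 in SOS and 75.6 in control. The HSPA9 escort DNLZ was at 4.64 in SOS and 8.89 in control. SAMM50, which inserts barrel proteins into the outer membrane, was at 34.9 in SOS and 57.8 in control. PHB and PHB2, the prohibitins that scaffold the m-AAA protease, were lower in SOS, PHB at 198 in SOS and 349 in control and PHB2 at 267 in SOS and 380 in control. The rhomboid protease PARL was at 16.3 in SOS and 29.8 in control. Of the 7 genes of MICOS, the complex that shapes the cristae, 6 were below 0, with MINOS1 at 25.1 in SOS and 47.8 in control.

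The 6 genes of that list above 0 were DDIT3, OMA1, CEBPB, MTX3, CHCHD6 and ATF4. DDIT3, which encodes the stress factor CHOP, was at 25.7 in SOS and 13.1 in control, and its partner CEBPB at 11.0 in SOS and 6.89 in control. OMA1, a stress-activated protease of the inner membrane, was at 12.2 in SOS and 7.38 in control. ATF4 was at 499 in SOS and 463 in control. ATF5, a factor tied to the mitochondrial unfolded protein response in mammals, was on the other side, at 17.4 in SOS and 28.6 in control. The chaperones and proteases commonly read out for that response were not higher in SOS as deposited: HSPD1, HSPE1, CLPP and LONP1 had log2 ratios of -0.37, -1.30, -0.38 and -0.15. With the libraries scaled to the same sum without MT- genes these were -0.02, -0.94, -0.02 and 0.20.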

How the data were processed

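The authors deposited 1 table with FPKM for each of 2 libraries, their own log2 ratio, and p-value and adjusted p-value columns, per the file headers. The build GRCh38.p10 and the tools HISAT2, RSEM and Cufflinks are named per the submitters' processing notes; their roles and versions, the annotation, strand and the test behind the authors' p-value were not given in the sources used here. Without strand, reads of overlapping and antisense genes cannot be told apart. Of 58645 entries, 412 without a name and 27 with names turned into dates were left out; values of entries sharing a name were summed. The measure was log2((SOS FPKM + 1)/(control FPKM + 1)) where one or both libraries reached 1 FPKM; a size of at least 1 was counted. With 1 library per group there was no test. The code was tested on simulated data. The authors' log2 ratio was turned to SOS over control after its median offset of 0.15 was removed, taken over 8976 genes that reached 5 FPKM in both libraries. Positions and transcript lengths are from GENCODE 29 (GRCh38), promoters from RefSeq. All members may be named. The members and lists were chosen with earlier results of these data known, so no count is independent support. Python 3.11.15, numpy 2.4.6, pandas 2.3.3 and matplotlib 3.10.9 were used.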

Additional observations from a re-analysis of the deposited data

How the results depend on the processing

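The median of the 43 genes stayed below 0 under all 9 alternatives. It moved from -0.48 as deposited to -0.26 with the libraries scaled to the same sum and to -0.13 without the MT- genes in that sum; the median of all genes tested moved upward with it, to 0.15 and 0.27. The number of genes lower by the size rule was 1 as deposited, 2 with a pseudocount of 0.1 and also 2 with 0.01 (HSPE1 and TIMM8B), and 0 with the libraries scaled to the same sum without MT- genes; 1 was found under the other 6 alternatives, and none was higher under any. Of the 43 genes, 27 were below 0 and 4 above 0 under every setting run, and 12 changed side. For the 4 above 0, only the authors' ratio could have changed the side. Minimum FPKM and the largest entry per name changed no member value. No paired analysis was possible because each group has 1 library and the labels give no replicate numbers. The table gives no counts, so the precision of low values such as those of TIMM23B and MIPEP is unknown.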
